A study of Mus musculus with 24 samples.

Results

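The striatum was compared with the frontal cortex in adult male mice whose mothers had undergone maternal immune activation (MIA) and which had themselves received saline. The comparison was set by region alone and took every library of both groups: 3 libraries of CD11b-sorted cells from MIA striatum saline and 3 from MIA cortex saline, 6 of the 24 libraries of the series. The mice were 8 to 10 weeks old, and the cells were taken 18 h after an intraperitoneal injection. Saline was the vehicle of a lipopolysaccharide (LPS, a bacterial cell-wall product) challenge of 4500 EU/g given to other mice. The agent given to the dams, the mouse strain and the litters are not named in the labels used here. Brains were perfused and freed of meninges, the tissue was digested with papain and cleared of debris, and the cells were pulled out with magnetic beads against CD11b. The cortex came from in front of and above the corpus callosum, and the striatum joined an anterior piece around the nucleus accumbens with a dorsal and ventral piece behind it, without the olfactory tubercle. Set beside these 6 libraries were MIA striatum LPS and MIA cortex LPS (2 libraries used and 3) and control striatum saline and control cortex saline (3 each), sorted in the same way.

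Microglia are the resident macrophages of brain tissue. They keep a shared programme of surveillance genes in every region, and some of their other genes are known to differ between regions. CD11b, the integrin subunit encoded by Itgam, also sits on neutrophils, on monocytes and on the macrophages that line vessels, meninges and choroid plexus, so a CD11b sort enriches microglia without purifying them. In such a bulk sample, fewer cells of a type and less RNA per cell cannot be told apart.

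The 6 libraries held 23212934 to 28719718 counts each, with 18441 to 19920 genes detected and 2.55% to 3.64% of counts from mitochondrial genes. Levels below are CPM, counts scaled to a common library size. The 35 homeostatic microglia genes together stood at 139114 to 145203 CPM in striatum libraries and 132251 to 138207 CPM in cortex libraries, and none of them was at 0. Itgam itself stood at 1186, 1057 and 1254 CPM in striatum and 862, 1389 and 986 CPM in cortex. Some libraries stood apart in the genes of other cells. The summed level of 22 neutrophil genes was 1109 CPM in MIA cortex saline replicate 1, against 582 and 617 CPM in replicates 2 and 3. The ependymal and choroid plexus genes summed to 123 CPM in MIA striatum saline replicate 3, against 42.0 and 15.3 CPM in replicates 1 and 2. The pan-neuronal genes summed to 287 CPM in MIA cortex saline replicate 3, against 138 and 112 CPM in replicates 1 and 2. The labels do not say whether libraries of a group came from separate animals, so p-values measure only the spread between libraries. That spread was estimated over the 23 libraries of the fit in 8 groups, not over these 6 alone.

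In MIA offspring at rest, few genes separated the regions. Of 17139 genes tested with edgeR's quasi-likelihood test, 14 (0.0817%) passed an adjusted p of 0.05, here named called. Of these, 3 (0.0175%) were higher in striatum and 11 (0.0642%) were lower. The 3 higher genes were Dmrtb1, Retnla and Sprr2a2, and the 11 lower ones included Ptger3, Anxa1, Emb, Fpr1, Mcemp1, Trem1, S100a8, Ngp, Camp and Retnlg. The libraries of the groups did not overlap for any of the 14 genes, nor for 1772 (10.3%) of all genes tested. Without adjustment, 435 genes were higher (2.54%) and 348 were lower (2.03%) at p under 0.05, 783 genes in all (4.57%), and the median log2 fold change over all genes was 0. DESeq2, a second count test, called 100 genes (0.583%), 50 in each direction, including all 14. Among 8441 genes of at least 10 CPM the median standard error (SE) was 0.21 on the log2 scale, and for 85.6% of them the 95% interval lay within a 2-fold change either way. Over all genes tested that share was 48.8%.

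**Figure D1:**
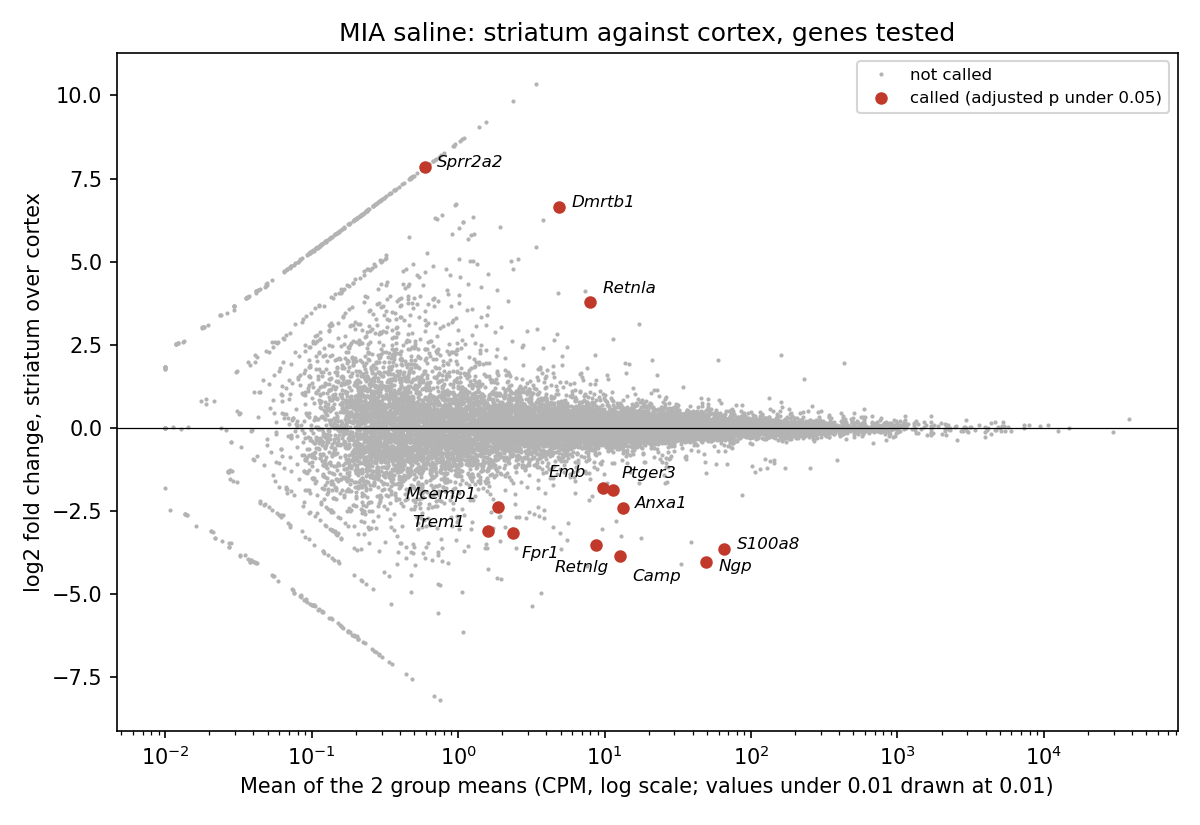
Log2 fold change of striatum over cortex in MIA saline libraries (y axis) against the mean of both group means in CPM (x axis, log scale), 1 point per gene tested, with 13 called genes in red. The called genes lie at low and middling levels, and the most abundant genes lie close to 0; the fold change drawn for Sprr2a2, which had no count in cortex, depends on the prior count and is no estimate of size.

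**Figure D2:**
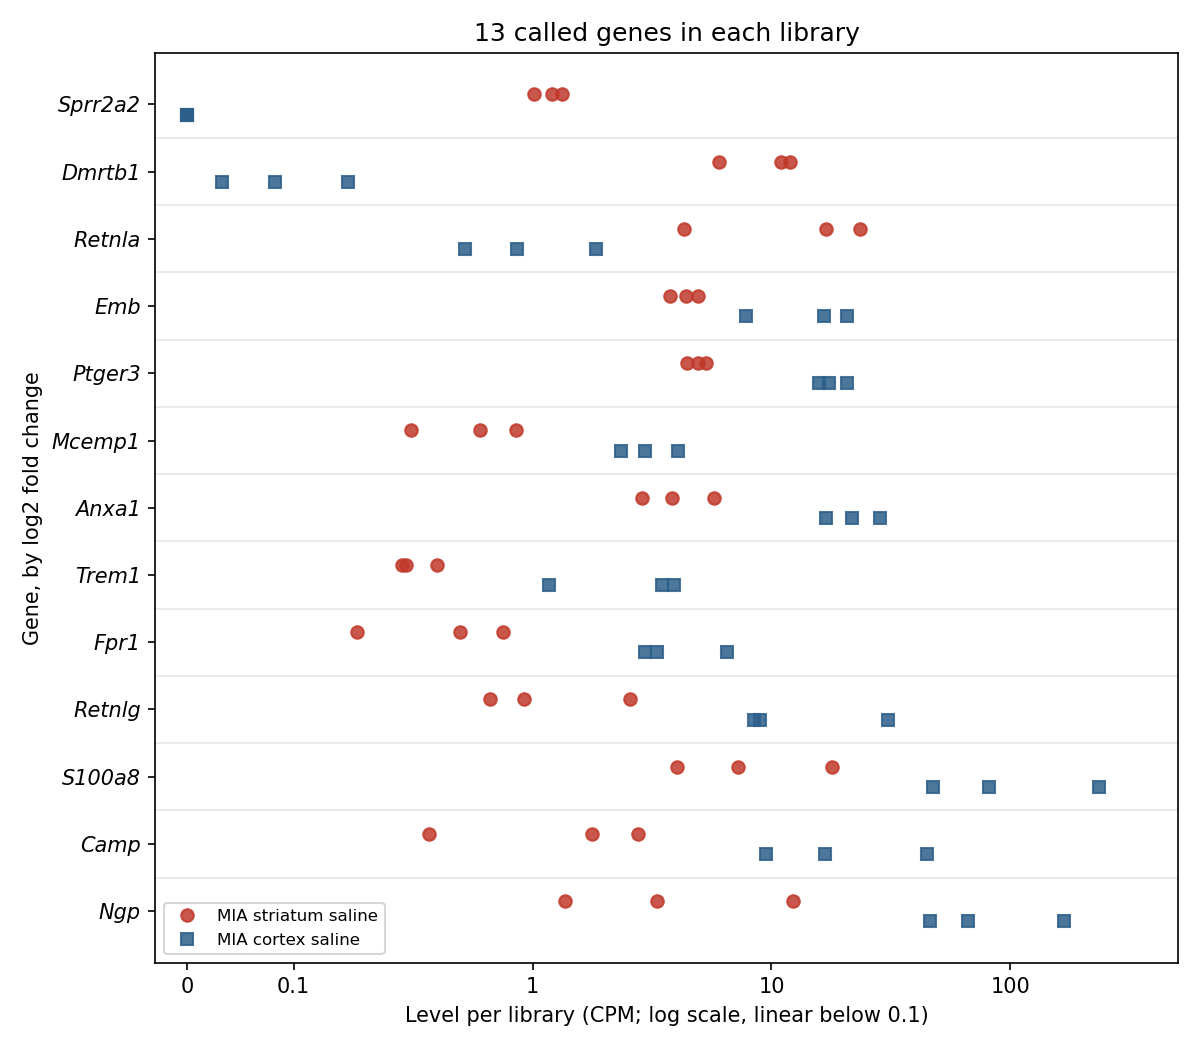
Level of 13 called genes in each library (x axis, CPM, log scale, linear below 0.1), with 1 point per library, MIA striatum saline (3 libraries) above MIA cortex saline (3 libraries). For each gene the 3 striatum points and the 3 cortex points do not overlap, with Dmrtb1 between 6.02 and 12.01 CPM in striatum and no higher than 0.168 CPM in cortex.

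Dmrtb1 (ENSMUSG00000028610.16) had the smallest p of all genes. It encodes a transcription factor of the DMRT family, known in the mouse for a role in spermatogonia. Dmrtb1 stood at 6.02, 12.01 and 10.98 CPM in MIA striatum saline, against 0.168, 0.0821 and 0.0326 CPM in MIA cortex saline. All 3 striatum libraries were high and all 3 cortex libraries were close to 0, with 136, 325 and 309 counts in striatum against 4, 2 and 1 in cortex. The log2 fold change was 6.66 ± 0.79 (SE, adjusted p = 0.00092, n = 3 and 3). Dmrtb1 was called without each library in turn (adjusted p between 0.00133 and 0.0180). Its mean was just under the 10 CPM that the rule for naming genes asks for, so Dmrtb1 was singled out after its values were seen, as were Sprr2a2, Mcemp1 and Trem1.

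Retnla (ENSMUSG00000061100.5) encodes RELM-alpha, a secreted protein typical of alternatively activated macrophages in the mouse. Its levels were 4.29, 23.5 and 17.0 CPM in MIA striatum saline, against 1.85, 0.862 and 0.521 CPM in MIA cortex saline. The striatum libraries spread widely, with replicate 1 lowest, and all 3 lay above the highest cortex library. The log2 fold change was 3.79 ± 0.68 (SE, adjusted p = 0.0335). Leaving out striatum replicate 1 kept the call (adjusted p = 0.0219), and leaving out any other library ended it: adjusted p was 0.215 and 0.0728 without striatum replicates 2 and 3, and 0.0633, 0.162 and 0.137 without cortex replicates 1, 2 and 3.

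Sprr2a2 (ENSMUSG00000068893.5) encodes a small proline-rich protein of the cornified envelope of epithelia. It had 1.02, 1.33 and 1.21 CPM in MIA striatum saline and no count in any MIA cortex saline library. Against a floor of 3 counts per library, this was at least 10.2-fold higher in striatum (adjusted p = 0.0496). The call was lost without each library in turn (adjusted p between 0.0883 and 0.215). The near-identical neighbour Sprr2a1 had expected counts of 7.07, 10.64 and 20.63 in striatum and 0 in cortex, so how the authors' counting divided reads between these genes is uncertain.

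The neighbours Retnla and Retnlg, adjacent genes of the resistin-like family in the RefSeq order, were called in opposite directions, and Camp and Ngp fell together. The 250 bases before the start of these 4 genes are shown for that reason (RefSeq windows, build GRCm38.p6, 5′ to 3′ on the gene's strand). They span chr16:48842359-48842608 (+) for Retnla, chr16:48872358-48872607 (+) for Retnlg, chr9:109849457-109849706 (−) for Camp and chr9:110419558-110419807 (+) for Ngp. Capitals mark matches, on either strand, to TTGCNNAA (bound by C/EBP factors of myeloid cells), TTC and GAA parted by any 4 bases (STAT6, the factor downstream of interleukin-4) or GAGGAAG (PU.1, the lineage factor of macrophages).
Retnla: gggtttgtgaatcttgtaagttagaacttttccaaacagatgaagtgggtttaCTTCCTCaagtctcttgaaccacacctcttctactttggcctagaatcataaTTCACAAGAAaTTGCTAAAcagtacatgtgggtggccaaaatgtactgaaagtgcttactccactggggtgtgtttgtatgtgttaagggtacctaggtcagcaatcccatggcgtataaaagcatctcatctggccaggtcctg
Retnlg: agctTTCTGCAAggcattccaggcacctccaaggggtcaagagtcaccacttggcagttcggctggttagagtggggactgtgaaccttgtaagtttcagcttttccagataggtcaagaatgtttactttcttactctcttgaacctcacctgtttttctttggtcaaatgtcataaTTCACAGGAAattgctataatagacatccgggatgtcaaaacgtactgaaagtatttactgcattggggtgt
Camp: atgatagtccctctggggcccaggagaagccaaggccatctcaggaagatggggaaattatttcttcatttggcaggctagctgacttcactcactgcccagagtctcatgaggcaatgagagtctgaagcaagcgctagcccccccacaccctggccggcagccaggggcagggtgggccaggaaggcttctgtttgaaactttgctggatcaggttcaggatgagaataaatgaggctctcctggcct
Ngp: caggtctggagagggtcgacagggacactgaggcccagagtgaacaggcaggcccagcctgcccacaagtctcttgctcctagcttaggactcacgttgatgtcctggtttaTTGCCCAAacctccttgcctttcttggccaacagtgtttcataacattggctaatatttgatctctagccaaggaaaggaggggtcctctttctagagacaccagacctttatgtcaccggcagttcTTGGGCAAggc

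The Retnla window held a match to each motif. The STAT6 match TTCACAAGAA began 145 bases before the start, the C/EBP match began 134 bases before it, and the PU.1 match began 197 bases before it. The Retnlg window held a STAT6 match, TTCACAGGAA, 72 bases before the start and a C/EBP match 246 bases before it. The Ngp window held 2 C/EBP matches, 138 and 11 bases before the start, and the Camp window held none of the 3 motifs. Matches of the different motifs did not overlap. Of 32851 RefSeq windows of this length, 9.56% held the C/EBP motif, 5.85% the STAT6 motif and 10.6% the PU.1 motif. Windows were found for 13 of the 14 called genes.

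Ptger3 (ENSMUSG00000040016.16) encodes EP3, an inhibitory receptor for prostaglandin E2. It was at 4.43, 4.91 and 5.33 CPM in MIA striatum saline, against 17.3, 20.7 and 15.7 CPM in MIA cortex saline. Libraries within each region lay close together and the regions were well apart. The log2 fold change was -1.87 ± 0.26 (SE, adjusted p = 0.00299), and Ptger3 was called without each library in turn (adjusted p between 0.00794 and 0.0440). It was the only called gene among 28 tested neurotransmitter and purine receptor genes of microglia, whose median log2 fold change was -0.02. Ptger3 was known as a regional gene from an earlier account of these libraries when that list was written.

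Anxa1 (ENSMUSG00000024659.15), which encodes annexin A1, a glucocorticoid-induced ligand of formyl peptide receptors that helps end inflammation, was also lower. It had 2.88, 3.84 and 5.76 CPM in MIA striatum saline, against 28.5, 16.9 and 21.7 CPM in MIA cortex saline. The highest striatum library stood well below the lowest cortex library. Anxa1 fell by 2.42 on the log2 scale (SE 0.33, adjusted p = 0.00299) and was called without each library in turn (adjusted p between 0.00604 and 0.0440). Fpr1 (ENSMUSG00000045551.7), the formyl peptide receptor that annexin A1 can bind, stood at 0.752, 0.185 and 0.497 CPM in striatum, against 2.95, 3.32 and 6.52 CPM in cortex. Its log2 fold change was -3.17 ± 0.55 (SE, adjusted p = 0.0335). The call of Fpr1 was kept without cortex replicate 1 or 2 (adjusted p = 0.0472 and 0.0430) and lost without cortex replicate 3 (0.0999) or striatum replicate 1, 2 or 3 (0.0806, 0.215 and 0.106).

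Emb (ENSMUSG00000021728.8) encodes embigin, a membrane chaperone of monocarboxylate transporters. Emb had 4.91, 3.77 and 4.37 CPM in MIA striatum saline, against 7.78, 20.8 and 16.6 CPM in MIA cortex saline. The striatum libraries were alike, and cortex replicate 1 lay nearest to them. The log2 fold change was -1.79 ± 0.31 (SE, adjusted p = 0.0335). Without cortex replicate 1 it was -2.12 (adjusted p = 0.00441), and without any other single library Emb was not called (adjusted p between 0.0757 and 0.215).

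Of the called genes, 4 were neutrophil granule or secreted products on the neutrophil list. S100a8 (ENSMUSG00000056054.9), a calprotectin subunit, had 7.26, 4.03 and 17.9 CPM in MIA striatum saline, against 235, 47.6 and 81.7 CPM in MIA cortex saline. Ngp (ENSMUSG00000032484.8), neutrophilic granule protein, had 3.32, 1.37 and 12.3 CPM in striatum, against 168, 46.1 and 66.7 CPM in cortex. In both genes cortex replicate 1 was far above the other cortex libraries, and the regions did not overlap. The log2 fold changes were -3.64 ± 0.65 for S100a8 and -4.04 ± 0.71 for Ngp (SE, adjusted p = 0.0335 each). Camp (ENSMUSG00000038357.10), the cathelicidin antimicrobial peptide, had 1.77, 0.369 and 2.77 CPM in striatum, against 44.9, 9.52 and 16.8 CPM in cortex (log2 fold change -3.85 ± 0.72, adjusted p = 0.0462). Retnlg (ENSMUSG00000022651.6), a resistin-like protein of neutrophils, had 0.664, 0.923 and 2.56 CPM in striatum, against 30.8, 8.95 and 8.44 CPM in cortex (log2 fold change -3.52 ± 0.67, adjusted p = 0.0498).

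Of 21 tested neutrophil genes, 4 were called lower and none higher, beside 0.0642% of all genes called lower. Unadjusted p was under 0.05 for 18 of the 21 genes, all lower, and DESeq2 called 13 (0.292% of all genes were called lower by it). The median log2 fold change was -3.37, against 0 over all genes tested. The summed level of the list was 349, 302 and 383 CPM in MIA striatum saline, against 1109, 582 and 617 CPM in MIA cortex saline, and no gene of the list was at 0 in all 6 libraries. Among genes that did not pass, chosen after their values were seen, S100a9, the partner of S100a8, had 4.65, 3.69 and 11.3 CPM in striatum against 150.4, 28.6 and 33.1 CPM in cortex (adjusted p = 0.0798). Ltf, the iron-binding granule protein lactoferrin, had 1.68, 0.222 and 8.95 CPM in striatum against 110, 34.1 and 42.8 CPM in cortex (adjusted p = 0.0859). Ly6g, the surface marker of mouse neutrophils, had 0, 0 and 0.142 CPM in striatum against 2.82, 0.821 and 0.586 CPM in cortex (adjusted p = 0.576).

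The neutrophil calls rested on single libraries. Without MIA cortex saline replicate 1 no neutrophil gene was called, 14 of the 21 were lower at an unadjusted p under 0.05, and the list median was -2.63. S100a8 then had a log2 fold change of -2.73 (adjusted p = 0.168), Ngp one of -3.31 (adjusted p = 0.154), Camp one of -3.01 (adjusted p = 0.258) and Retnlg one of -2.63 (adjusted p = 0.288). Without striatum replicate 1 or 2 no neutrophil gene was called either, with medians of -3.20 and -3.10. Without striatum replicate 3, which had the highest neutrophil level of its group, 6 genes of the list were called and the median was -4.30. Without cortex replicate 2 or 3 the calls numbered 3 and 4.

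Mcemp1 and Trem1 were called lower at low levels. Mcemp1 (ENSMUSG00000013974.3), a membrane protein first described in mast cells, had 0.310, 0.85 and 0.604 CPM in MIA striatum saline, against 4.08, 2.96 and 2.35 CPM in MIA cortex saline (-2.38 ± 0.37, adjusted p = 0.0112). Trem1 (ENSMUSG00000042265.13), a receptor that amplifies inflammation in neutrophils and monocytes, had 0.398, 0.296 and 0.284 CPM in striatum, against 3.91, 3.49 and 1.17 CPM in cortex (-3.11 ± 0.57, adjusted p = 0.0432). The regions did not overlap in either gene, though the cortex levels were only a few CPM. Without cortex replicate 1 the adjusted p was 0.0606 for Mcemp1 and 0.168 for Trem1. Mcemp1 was also lost without striatum replicate 1 (0.0806). Trem1 was called only without cortex replicate 3 (0.00878).

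Of 25 tested blood monocyte genes, 3 were called lower (Anxa1 and Emb among them) and none higher, beside 0.0642% of all genes called lower. Anxa1 and Emb were known as regional genes from an earlier account of these libraries when the list was written. The count of calls is therefore no separate support for a monocyte difference. Unadjusted p was under 0.05 for 12, all lower, beside 2.03% of all genes. DESeq2 called 7 lower, beside 0.292% of all genes. The median log2 fold change was -1.01. The summed level was 708, 881 and 706 CPM in MIA striatum saline, against 1061, 1243 and 1036 CPM in MIA cortex saline. Leaving out single libraries gave 1 to 3 calls and medians between -1.15 and -0.80, and without cortex replicate 1 the median was -0.87 with 2 calls. Ccr2, the chemokine receptor of inflammatory monocytes, had 5.58, 6.65 and 5.97 CPM in striatum against 10.1, 11.5 and 17.0 CPM in cortex without passing (adjusted p = 1). Ly6c2, the surface antigen of the same cells, had 0.531, 0.296 and 1.46 CPM in striatum against 10.6, 2.63 and 2.08 CPM in cortex (adjusted p = 0.319). These genes were chosen after their values were seen.

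**Figure D3:**
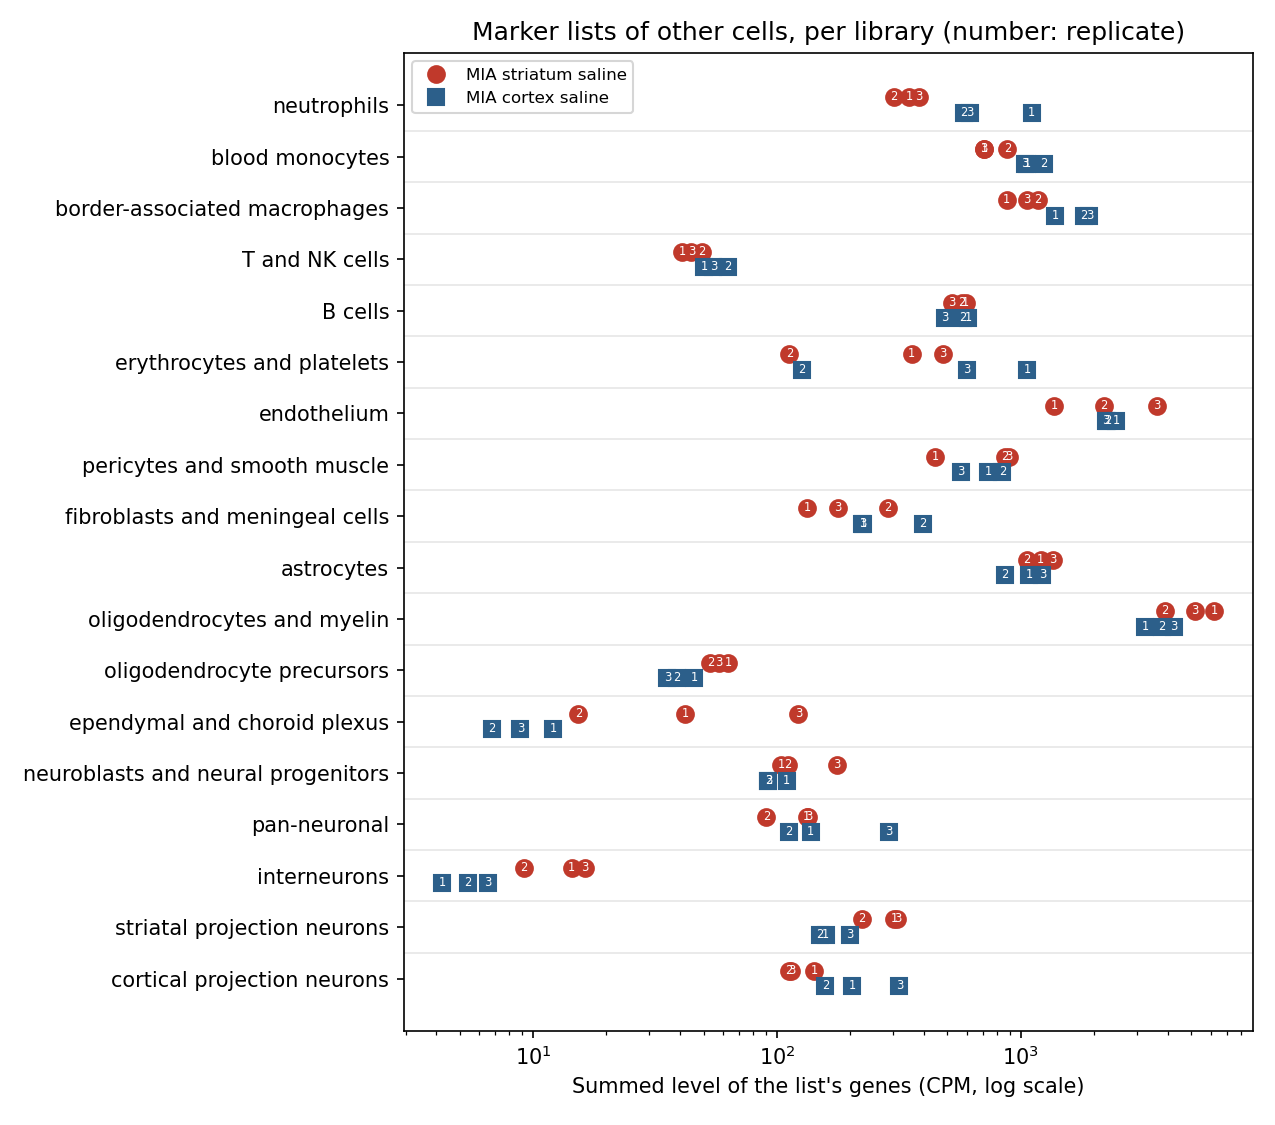
Summed level of each marker list (x axis, CPM, log scale) in each library, numbered by replicate, with MIA striatum saline above MIA cortex saline. Neutrophil, monocyte and border-associated macrophage genes lie lower in all 3 striatum libraries than in all 3 cortex libraries, and ependymal genes lie higher, with striatum replicate 3 at 123 CPM. Genes of T and NK cells and of cortical projection neurons also lie lower without overlap. Those of striatal projection neurons, interneurons and oligodendrocyte precursors also lie higher without overlap.

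Border-associated macrophages, which line vessels and meninges, showed Retnla called higher and no gene called lower among 22 tested genes, beside 0.0175% of all genes called higher and 0.0642% called lower. DESeq2 called 1 gene higher and 4 lower, beside 0.292% of all genes in each direction. With edgeR, Retnla stayed called in 1 of the 6 fits that left out a library. Retnla was also known as a regional gene from an earlier account of these libraries when the list was written. Of the 22, 20 had a negative log2 fold change and 12 of these had an unadjusted p under 0.05, beside 2.03% of all genes lower, with a list median of -0.75. Mrc1, the mannose receptor of these cells, stood at 124, 172 and 159 CPM in MIA striatum saline, against 222, 409 and 423 CPM in MIA cortex saline (log2 fold change -1.21 ± 0.31, adjusted p = 0.223). Lyve1, a hyaluronan receptor, stood at 21.1, 36.5 and 26.5 CPM in striatum, against 60.004, 72.1 and 80.7 CPM in cortex (-1.34 ± 0.40, adjusted p = 0.469). Retnla, a gene of the same list, was higher where these defining markers, chosen after their values were seen, were lower. The summed level of the list was 874, 1171 and 1056 CPM in striatum, against 1387, 1814 and 1909 CPM in cortex. The part of these cells in the difference of Retnla was not tested.

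Class II antigen presentation genes stood lower in striatum without passing. Neither edgeR nor DESeq2 called any of the 13 tested genes. Of the 13, 12 had a negative log2 fold change and the median was -0.56. Unadjusted p was under 0.05 for 5, all lower, beside 2.03% of all genes. The median was -0.19 without cortex replicate 3 and -0.88 without cortex replicate 1, with 5 genes at an unadjusted p under 0.05 in each. H2-Aa, a chain of the class II molecule, had 52.6, 94.8 and 58.2 CPM in MIA striatum saline, against 154, 198 and 129 CPM in MIA cortex saline (log2 fold change -1.23 ± 0.35, adjusted p = 0.406). H2-Eb1 had 44.3, 89.3 and 50.03 CPM in striatum, against 153, 182 and 121 CPM in cortex (-1.31 ± 0.38, adjusted p = 0.421). The regions did not overlap for either gene. The border-associated macrophage and monocyte sums given above moved the same way across the regions, and their part in the class II values was not tested.

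Gene by gene, the programme of resting microglia was close to level between the regions within the precision of 3 libraries a group. The summed level given above was higher in striatum without overlap. None of the 35 homeostatic genes was called. Their median log2 fold change was -0.01, their range ran between -0.26 (Fcrls) and 0.71 (Sall3), and for 34 of 35 the 95% interval lay within a 2-fold change either way. P2ry12, the ADP receptor of surveying microglia, had 4438, 4581 and 4684 CPM in MIA striatum saline, against 3713, 5361 and 5266 CPM in MIA cortex saline. Its log2 fold change was -0.07 ± 0.17 (95% interval -0.42 to 0.29). Cx3cr1, the fractalkine receptor, had a log2 fold change of -0.02 ± 0.14, Tmem119, a surface protein of microglia, one of -0.19 ± 0.21, and Csf1r, the receptor for the survival factors CSF1 and interleukin-34, one of -0.09 ± 0.21. Sall1, the transcription factor that holds microglial identity, stood at 366, 398 and 236 CPM in striatum against 338, 285 and 246 CPM in cortex (0.20 ± 0.18). None of the 29 microglial transcription factor genes was called, and their median was 0.01.

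None of 27 disease-associated microglia genes was called by edgeR, 2 were higher and 1 lower at an unadjusted p under 0.05, and the median was 0.11. Lpl, lipoprotein lipase, had the smallest p of that list, at 45.2, 30.0 and 27.9 CPM in MIA striatum saline against 15.8, 10.1 and 8.34 CPM in MIA cortex saline (log2 fold change 1.59 ± 0.39, adjusted p = 0.205), and DESeq2 called it (adjusted p = 0.0126). Trem2, a lipid receptor of microglia, had a log2 fold change of 0.12 ± 0.14 and Apoe, the lipid carrier apolipoprotein E, one of -0.35 ± 0.21. None of 37 cytokine and chemokine genes was called by edgeR, 5 were lower at an unadjusted p under 0.05, and the median was -0.13. Il1b had 82.2, 119 and 129 CPM in striatum against 106, 129 and 109 CPM in cortex (-0.06 ± 0.22), and Tnf had 265, 334 and 517 CPM in striatum against 231, 316 and 428 CPM in cortex (0.20 ± 0.25). Ccl24, an eosinophil attractant, had 11.3, 19.2 and 19.6 CPM in striatum against 28.99, 44.6 and 38.4 CPM in cortex (-1.16 ± 0.27, adjusted p = 0.154), and it was the 1 gene of the list that DESeq2 called (adjusted p = 0.00772). None of 48 interferon response genes was called by edgeR or DESeq2, 4 were lower at an unadjusted p under 0.05, 38 had a negative log2 fold change, and the median was -0.24. Of 33 phagocytic and pattern receptor genes, Fpr1 was the only edgeR call, beside 0.0642% of all genes called lower. DESeq2 called 4 lower, beside 0.292% of all genes. At an unadjusted p under 0.05, 7 were lower and 2 higher, beside 2.03% and 2.54% of all genes. Their median was -0.06. Anxa1, a regional gene of the earlier account, was the only edgeR call of 22 glucocorticoid response genes, and DESeq2 called 2 of these lower.

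Housekeeping and stress genes showed no called member in the lists of lysosomal genes (34 tested, median -0.06), oxidative phosphorylation (40 tested, 0.04), glycolysis (25 tested, -0.03), cytosolic ribosomal proteins (40 tested, 0.06), heat shock (25 tested, 0.10) and immediate early genes (29 tested, -0.07). Some of these lists varied between libraries of a region. Ribosomal protein genes summed to 15804, 15967 and 11376 CPM in MIA striatum saline and 18388, 12134 and 10857 CPM in MIA cortex saline. Glycolysis genes were steadier, at 5897 to 6492 CPM in striatum and 6192 to 6330 CPM in cortex. Cholesterol synthesis and uptake genes had no call among 28, and 23 of them had a negative log2 fold change (median -0.17).

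None of the 29 tested striatal projection neuron genes was called by edgeR. At an unadjusted p under 0.05, 18 were higher in striatum and none lower, beside 2.54% of all genes higher. DESeq2 called 6 higher, beside 0.292% of all genes. The median log2 fold change was 2.15, or 1.93 with genes at 0 in cortex set to the floor. Ppp1r1b, the dopamine-regulated phosphatase inhibitor DARPP-32, had 22.8, 16.2 and 20.4 CPM in MIA striatum saline against 4.25, 0.985 and 3.94 CPM in MIA cortex saline (2.69 ± 0.63, adjusted p = 0.155). Gng7, a G protein subunit of striatal neurons, had 36.6, 17.4 and 47.1 CPM in striatum against 6.52, 4.88 and 13.2 CPM in cortex (2.03 ± 0.51, adjusted p = 0.217). The list summed to 302, 223 and 312 CPM in striatum and 158, 149.8 and 199 CPM in cortex. Of 24 cortical projection neuron genes edgeR called none, with a median of -1.27. At an unadjusted p under 0.05, 8 were lower and 1 was higher, beside 2.03% and 2.54% of all genes. Without cortex replicate 3 these numbers were 2 lower and 2 higher, with a median of -0.80, and without striatum replicate 2 or 3 they were 3 lower and 1 higher. The higher one was Crym, which encodes a thyroid hormone-binding protein, at 14.2, 13.6 and 13.9 CPM in striatum against 0.547, 0.780 and 1.04 CPM in cortex (4.12 ± 0.91, adjusted p = 0.128), and DESeq2 called it (adjusted p = 0.00744). Cck, the neuropeptide cholecystokinin, had 0.885, 0.443 and 0.178 CPM in striatum against 2.40, 2.50 and 7.53 CPM in cortex (adjusted p = 0.584). No gene of these 2 lists was at 0 in all 6 libraries.

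Ependymal and choroid plexus genes, from cells that line the ventricle beside the striatum, had no edgeR call among 21, and 15 were higher in striatum at an unadjusted p under 0.05, beside 2.54% of all genes. DESeq2 called 3 of the 21 higher, beside 0.292% of all genes. Their median log2 fold change was 3.81, or 3.03 with genes at 0 in cortex set to the floor, and without striatum replicate 3 it was 2.66 with 9 such genes and 1 lower. Ccdc153, a ciliary gene, had 5.62, 0.702 and 16.1 CPM in MIA striatum saline against 0.295, 0 and 0 CPM in MIA cortex saline (adjusted p = 0.293). Oligodendrocyte genes had no call by edgeR or DESeq2 among 28, all with a positive log2 fold change and a median of 1.16. Unadjusted p was under 0.05 for 8, beside 2.54% of all genes higher. That count of 8 rested on single libraries. It was 1 without cortex replicate 1 (median 0.79) or striatum replicate 1 (median 0.98), 2 without cortex replicate 2 and 4 without striatum replicate 3, and 12 without striatum replicate 2. Plekhb1, a gene of myelinating cells, had 169.8, 31.8 and 83.5 CPM in striatum against 25.2, 18.4 and 25.6 CPM in cortex (2.04 ± 0.74, adjusted p = 0.766). Among astrocyte genes Agt, angiotensinogen, had 8.01, 10.0 and 8.99 CPM in striatum against 0.210, 0.821 and 0.586 CPM in cortex (4.04 ± 0.99, adjusted p = 0.203), and DESeq2 called it (adjusted p = 0.00258). The part of these cells in the levels of Dmrtb1 and Sprr2a2, which were also higher in striatum, was not tested.

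The same 14 genes were read in the control offspring, whose libraries are not shared with the MIA comparison. There, 86 genes (0.502%) were called between striatum and cortex after saline, 78 higher (0.455%) and 8 lower (0.0467%), with 2030 (11.8%) at an unadjusted p under 0.05. These counts rested on single libraries: without control striatum replicates 1, 2 and 3 the calls numbered 8, 1 and 152, and without control cortex replicates 1, 2 and 3 they numbered 0, 4 and 18. All 14 genes called in MIA saline had the same direction, and 5 of them were called: Sprr2a2, Dmrtb1, Emb, Ptger3 and Fpr1. Dmrtb1 had 9.47, 11.7 and 11.1 CPM in control striatum saline against 0.460, 0.406 and 0.0468 CPM in control cortex saline (log2 fold change 5.12 ± 0.71, adjusted p = 0.00851). Ptger3 had 6.43, 6.09 and 4.99 CPM in control striatum against 20.1, 19.6 and 19.4 CPM in control cortex (-1.75 ± 0.26, adjusted p = 0.00851). Sprr2a2 had 1.84, 1.53 and 1.04 CPM in control striatum and no count in control cortex. Retnla had 5.51, 9.02 and 7.84 CPM in control striatum against 1.80, 0.355 and 0.889 CPM in control cortex (2.86 ± 0.66, adjusted p = 0.0532). The neutrophil gene S100a8 had 8.70, 12.6 and 20.0 CPM in control striatum against 38.8, 63.7 and 16.0 CPM in control cortex, where the groups overlapped (-1.51 ± 0.60, adjusted p = 0.292). The neutrophil list summed to 310 to 355 CPM in control striatum and 419 to 686 CPM in control cortex. Its median log2 fold change was -1.41, with no call. Border-associated macrophage genes summed to 924 to 1075 CPM in control striatum and 1500 to 1996 CPM in control cortex (median -0.70). Blood monocyte genes had a median of -0.66 with overlapping sums, and class II genes one of -0.46. Homeostatic microglia genes had a median of -0.23 with no edgeR call. They summed to 119066 to 138753 CPM in control striatum and 140842 to 147842 CPM in control cortex, opposite in direction to MIA saline. Across all 17139 genes the log2 fold changes of both comparisons had a Pearson correlation of 0.51 and a Spearman correlation of 0.22, given as a description since genes are not independent.

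**Figure D4:**
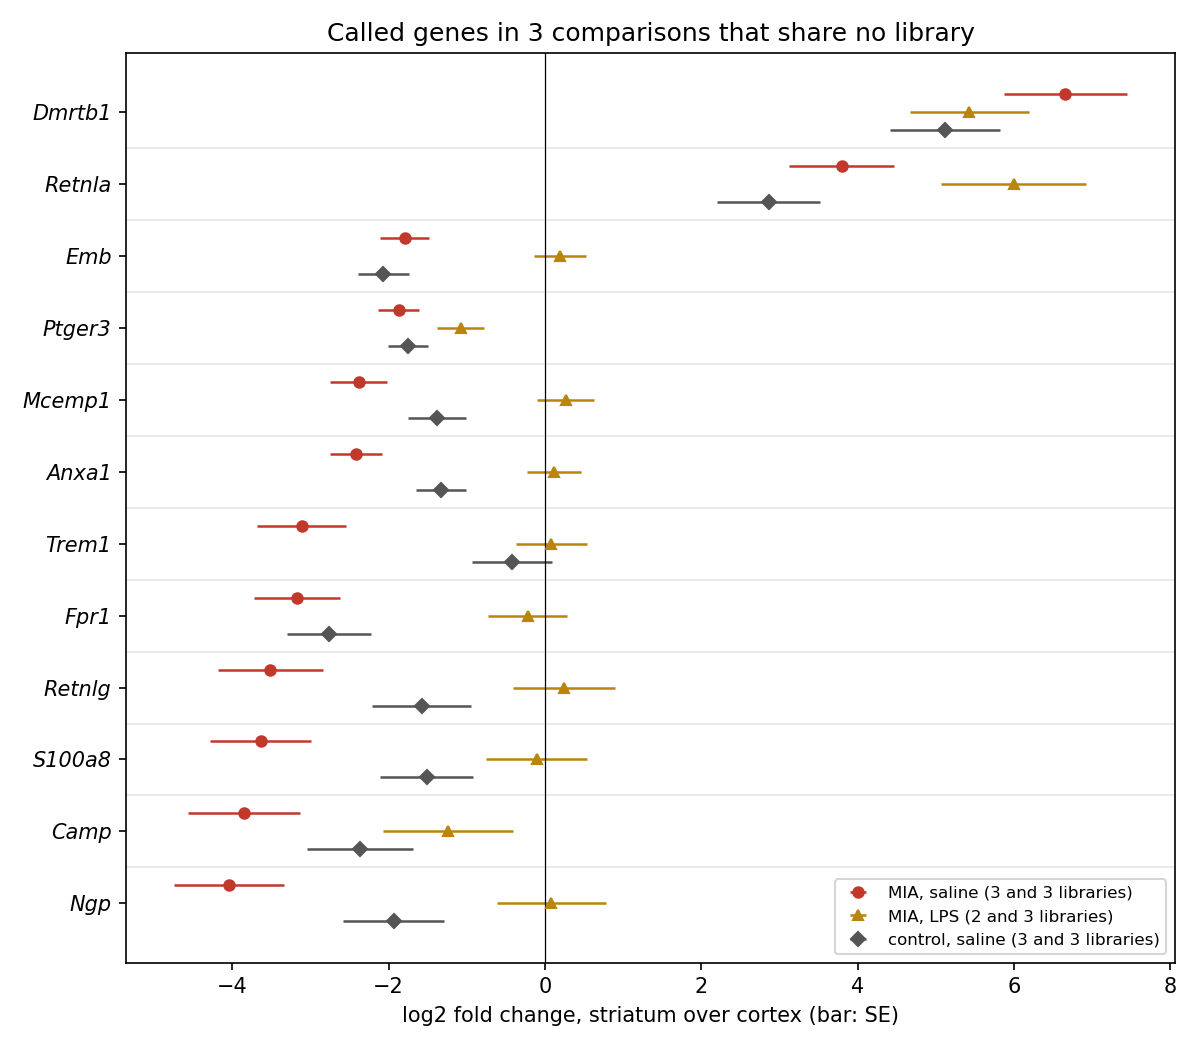
Log2 fold change of striatum over cortex (x axis, points, with bars of 1 SE) for 12 of the called genes in MIA saline, MIA LPS and control saline, which share no library. Sprr2a2, with no count in cortex, is left out; Dmrtb1 and Retnla lie right of 0 in all 3 comparisons, and the myeloid genes lie left of 0 after saline and near 0 after LPS, apart from Camp and Ptger3.

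Read the other way, of the 86 genes called in control saline 73 had the same direction in MIA saline and 5 were called there. The median log2 fold change of the 78 higher genes was 0.30 in MIA saline, against 1.96 in control saline. These genes were selected by their control values, which raises the control median. Both medians together therefore do not measure a difference between the prenatal groups. The same holds for the 2 genes that follow, chosen after their values were seen. Sdc2, a syndecan, was at 0.36 in MIA saline and at 1.96 in control saline, and Penk, the enkephalin precursor of striatal neurons, was at 1.79 in MIA saline and at 3.93 in control saline. The test of the regional difference in MIA minus that in control called no gene at all with edgeR (smallest adjusted p = 0.999988, 718 genes or 4.19% at an unadjusted p under 0.05), and DESeq2 called 1. Genes of vessel walls were set beside these calls. The endothelial list had a median of 0.07 in MIA saline, against 1.65 in control saline, and 23 of its 32 genes had an unadjusted p under 0.05 in that test without any passing adjustment. Its summed level was 1372, 2184 and 3620 CPM in MIA striatum saline and 2462, 2263 and 2234 CPM in MIA cortex saline, and lay between 2574 and 4990 CPM in control striatum saline and between 1365 and 1834 CPM in control cortex saline. The part of vascular RNA in the control calls was not tested.

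After LPS, Dmrtb1 and Retnla were the only genes called by edgeR in MIA offspring (0.0117%), both higher in striatum. At an unadjusted p under 0.05 there were 634 genes (3.7%), and DESeq2 called 14. Dmrtb1 had 5.87 and 6.35 CPM in MIA striatum LPS against 0, 0.0507 and 0.304 CPM in MIA cortex LPS (log2 fold change 5.43 ± 0.77, adjusted p = 0.0129). Retnla had 2.46 and 3.47 CPM in MIA striatum LPS against 0.0484, 0.0507 and 0.0304 CPM in MIA cortex LPS (5.99 ± 0.93, adjusted p = 0.0238). Of the 14 genes, 7 had the same direction as after saline. Anxa1 had 17.2 and 31.5 CPM in MIA striatum LPS against 20.5, 32.8 and 14.1 CPM in MIA cortex LPS (0.12 ± 0.35), and S100a8 had 83.9 and 198 CPM in MIA striatum LPS against 128, 213 and 113 CPM in MIA cortex LPS (-0.10 ± 0.65). Ptger3 had 2.22 and 1.34 CPM in MIA striatum LPS against 3.87, 4.05 and 3.40 CPM in MIA cortex LPS (-1.08 ± 0.30, adjusted p = 1).

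The test of the regional difference after saline minus that after LPS in MIA offspring called no gene with edgeR, with 478 genes (2.79%) at an unadjusted p under 0.05, and DESeq2 called 6. The smallest edgeR values were those of Anxa1, at -2.54 ± 0.47, and Mcemp1, at -2.65 ± 0.51 (SE, adjusted p = 0.372 each). DESeq2 called both, with adjusted p of 0.00205 for Anxa1 and 0.00168 for Mcemp1. For Retnla the difference was -2.20 ± 1.14, and for Dmrtb1 it was 1.23 ± 1.10 (adjusted p = 1 each).

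**Figure D5:**
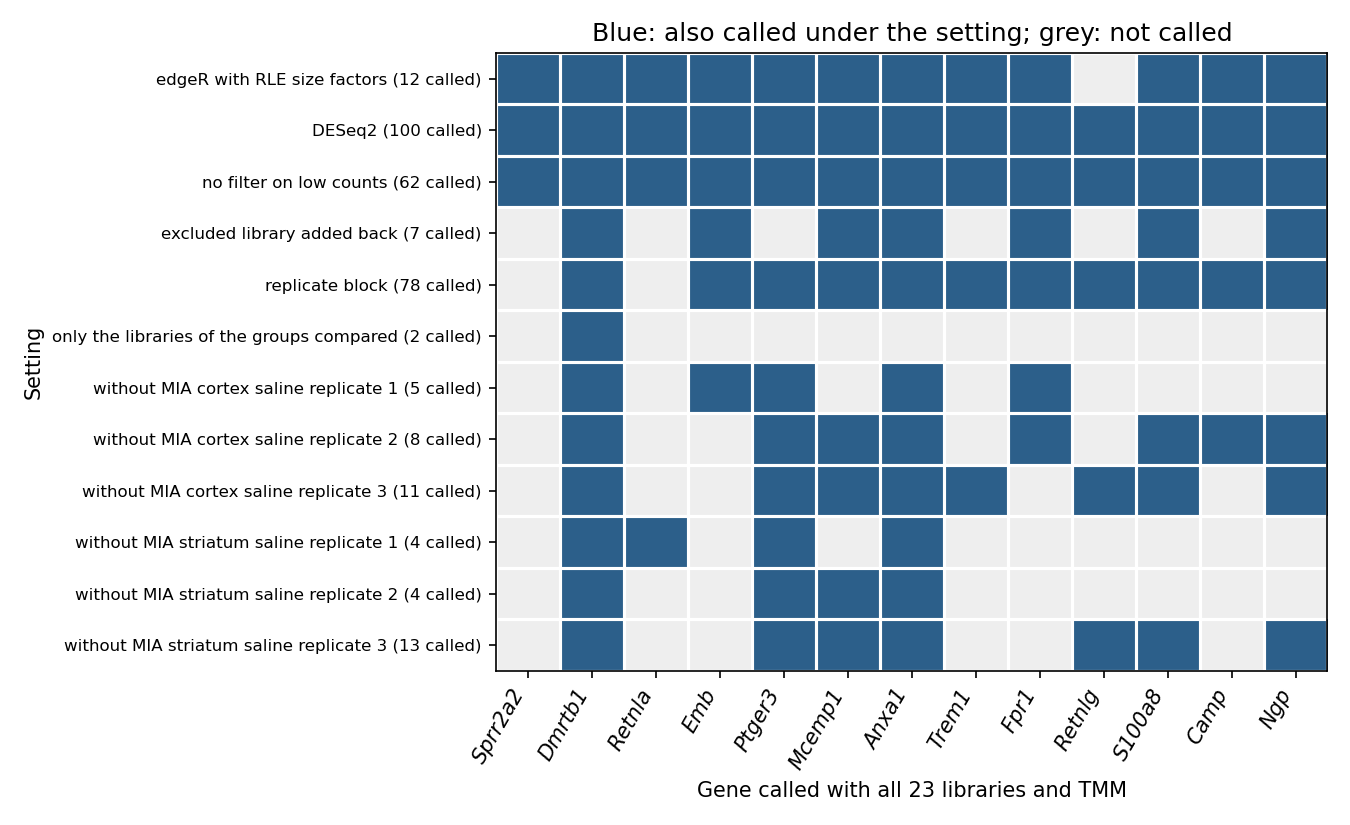
Which of 13 called genes (x axis) were also called (blue) or not (grey) under each alternative setting (y axis, with the total number of genes called in MIA saline). Dmrtb1 was called under all 12 settings, Anxa1 and Ptger3 were called without each library in turn, and the number of calls ran between 2 and 100.

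The number of calls moved with single libraries. Without MIA striatum saline replicates 1, 2 and 3 the calls numbered 4, 4 and 13. Without MIA cortex saline replicates 1, 2 and 3 they numbered 5, 8 and 11. Dmrtb1, Anxa1 and Ptger3 were called in each of these 6 fits. With the excluded library added back, Ptger3 was not called (adjusted p = 0.0628), and Anxa1 was (0.00480). In a fit of only the 6 libraries, Dmrtb1 was called (adjusted p = 0.0243), and Anxa1 (0.267) and Ptger3 (0.115) were not.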

How the data were processed

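RNA of CD11b-sorted cells had been sequenced from oligo-dT primed Smart-Seq2 type libraries, per the labels' protocols. The authors deposited 1 table of expected counts per gene and library. STAR, RSEM and DESeq2 are named in the submitters' processing notes, and their versions and the genome build are not given in the sources used here. Values were rounded to whole numbers (6.92% were not whole). Of 55487 gene identifiers, 55141 matched a symbol. The library titled as excluded (MIA striatum LPS replicate 3) was left out, which left 23 libraries of 19453295 to 29480499 counts. Genes were kept with filterByExpr (minimum count 10, minimum total 15), libraries were scaled with TMM, and edgeR 4.0.16 in R 4.3.3 fitted 1 mean for each of 8 groups (15 residual degrees of freedom). Two-sided p-values were adjusted over all 17139 genes (Benjamini-Hochberg), and genes under 0.05 were called. SEs follow from the quasi-likelihood F. DESeq2 1.42.0 was an alternative, with the others given below. The fit was also run on simulated counts, and the outcome is not given here. These were drawn independently for each library, so they cannot show how the fit handles shifts shared between libraries. A gene was named if called with at least 10 CPM and no overlap of the groups, or if among the leading genes of a list (up to 4 called, or 2 by p) or on a short list of microglial genes. The lists, the named genes and the tests were chosen with earlier results of these data known. Replicates differed by more than counting noise. Some items, 1 called gene among them, are not reported here.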

Additional observations from a re-analysis of the deposited data

Results flagged for a closer look

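The 3 genes higher in MIA striatum saline were also looked up in libraries outside the comparisons, and each stood above the cortex libraries of the same treatment there. In the 3 control striatum LPS libraries the lowest level of Dmrtb1 was 4.93 CPM, against 0.0829 to 0.424 CPM in control cortex LPS. The lowest level of Sprr2a2 was 1.18 CPM in control striatum LPS, and it had no count in control cortex LPS. The lowest level of Retnla was 1.33 CPM in control striatum LPS, against 0 to 0.236 CPM in control cortex LPS. Of the genes lower in MIA striatum saline, Ptger3 and Fpr1 were lower in all control striatum LPS libraries than in control cortex LPS. Emb, Mcemp1, Anxa1, Trem1, Retnlg, S100a8, Camp and Ngp overlapped there. Anxa1 had 33.2, 25.5 and 19.2 CPM in control striatum LPS against 29.3, 29.4 and 25.2 CPM in control cortex LPS. In the MIA striatum LPS library that the submitters marked as excluded, Dmrtb1 stood at 7.57 CPM, Sprr2a2 at 3.25 CPM and Retnla at 0.804 CPM. The highest MIA cortex LPS library held 0.326 CPM of Dmrtb1, 0.0502 CPM of Retnla and no Sprr2a2. These levels were scaled over all 24 libraries together, the excluded one included, so they differ slightly from the CPM given above for the same libraries. They were described without a test.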

How the results depend on the processing

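In MIA saline the 14 calls (3 higher, 11 lower) became 12 with RLE size factors, 100 with DESeq2 (50 and 50), 62 without a filter on low counts (20 and 42), 7 with the excluded library added back (1 and 6), and 2 with only the 6 libraries compared (2 and 0: Dmrtb1 and Crym). Leaving out 1 library gave 4 to 13 calls (1 to 2 higher, 2 to 12 lower). In control saline the 86 calls became 88 with RLE size factors, 575 with DESeq2, 445 without a filter, 19 with the excluded library, 533 with only its own libraries, and 0 to 152 with 1 library left out. In MIA LPS the 2 calls became 14, 6, 5 and 0 under DESeq2, no filter, the excluded library and own libraries, and 0 to 3 with 1 library left out. The test of region by prenatal history gave 1 call with DESeq2 and 0 otherwise. The test of region by LPS gave 6 calls with DESeq2, 7 without a filter and 0 to 1 with 1 library left out. Same-numbered libraries of striatum and cortex had deviations correlated at 0.177, 0.0646 and 0.300 in MIA and 0.124, 0.0422 and 0.168 in control saline. Striatum replicate 2 correlated more with cortex replicate 1 in both (0.138 and 0.0741). The labels do not say that same-numbered libraries came from 1 mouse, so the main fit had no replicate block. The heat shock list, chosen after its values were seen, fell in sum from replicate 1 to replicate 3 in each saline group. Its sums were 11553, 9663 and 7893 CPM in MIA striatum and 10457, 9766 and 7770 CPM in MIA cortex. They were 11757, 11151 and 8201 CPM in control striatum and 10787, 10197 and 8275 CPM in control cortex. The glycolysis list had no such order in MIA saline. Whether the numbers mark pairs was not tested. With the replicate number as a block, MIA saline gave 78 calls (21 higher, 57 lower, 12 of the 14 among them, without Retnla and Sprr2a2), control saline 627 and MIA LPS 9. Those 57 lower calls held 9 of 22 border-associated macrophage genes and 3 of 13 class II genes. Among the values of named genes under the alternatives, 966 kept direction and side of the threshold, 28 gained a call, 63 lost one and 13 changed sign. All 13 were uncalled genes with 1 library left out, whose values ranged as follows on the log2 scale: Atp13a5 between -0.151 and 1.16, Csf1r between -0.263 and 0.0638, Cx3cr1 between -0.0933 and 0.120 (also 0.0140), Hsp90aa1 between -0.0131 and 0.851, Il1b between -0.171 and 0.116 (also 0.0449), P2ry12 between -0.230 and 0.0254 (also 0.0244), Tnf between -0.107 and 0.467 (also -0.00659), mt-Co3 between -0.296 and 0.727, mt-Nd3 between -0.00641 and 0.682. The cause of these shifts was not tested. Litters are not given.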

Other observations

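Other gene groups held no called member in MIA saline with edgeR. Fibroblast and meningeal genes had 18 of 20 negative log2 fold changes (median -0.61). Of these, 2 had an unadjusted p under 0.05, beside 2.03% of all genes lower. Neuroblast and neural progenitor genes had 16 of 17 positive log2 fold changes (median 1.47). Of these, 4 had an unadjusted p under 0.05, beside 2.54% of all genes higher. Astrocyte genes had a median of 0.26, against 1.74 in control saline, and pericyte and smooth muscle genes one of 0.10, against 1.58 in control saline, where the difference between the prenatal groups called no gene. Genes of T and NK cells had a median of -0.54 over 18 tested genes, with Cd8a and Cd8b1 listed at 0 in all 6 libraries. Among B cell genes (9 tested, median 0.08), Blk was listed at 0. Genes of erythrocytes and platelets had a median of -0.72 over 10 tested genes, and their summed level was 357, 112 and 480.0 CPM in MIA striatum saline against 1059.6, 126 and 601 CPM in MIA cortex saline, so libraries within a region differed by more than the regions did. The lists of proliferation (median 0.07), complement (-0.02), MHC class I (-0.02), TGF-beta signalling (-0.01), NF-kB feedback (0.03), iron handling (0.0041) and mitochondrially encoded genes (0.08) had medians within 0.1 of 0.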
